A study of Rattus norvegicus with 20 samples.

Results

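The genes described here are the 10 neuronal immediate early genes *Fos*, *Fosb*, *Junb*, *Egr1*, *Egr2*, *Egr3*, *Egr4*, *Arc*, *Npas4* and *Nr4a1*, taken by symbol from the 31038 genes of a raw count matrix. All 10 passed the filter on low counts (5 reads or more in 10 or more libraries) that kept 16605 genes. They were measured by RNA-seq in the medial prefrontal cortex (mPFC) of 20 male Sprague-Dawley rats, with 1 library per rat. The LSD group was 10 rats given lysergic acid diethylamide (0.16 mg/kg, i.p.) every other day for 90 days, and the Saline group was 10 rats given sterile saline on the same schedule. Per the labels, the rats of both groups started at 6 to 8 weeks of age and the tissue, from a single hemisphere, was taken after 3 weeks without injections. The study's methods describe somewhat older rats and a longer interval, for both groups alike. The hour and order in which the rats were killed are not given in the sources used here.

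Immediate early genes are transcribed within minutes of strong synaptic input, because the factors that switch them on (CREB, SRF with its ELK partners, MEF2) already sit in the nucleus and need only calcium and ERK signalling to become active. Their mRNAs are short-lived, so their level in cortex is widely read as a trace of how active the neurons were shortly before death. Most encode transcription factors that go on to drive a later wave of genes, whereas *Arc* acts directly at synapses. A single dose of LSD is known to raise several of them in the prefrontal cortex through serotonin receptors on pyramidal neurons. The question addressed here is whether their levels still differed between the groups weeks after the last dose.

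Promoter sequences are shown for 3 of the 5 members that held matches to the short elements known to respond to calcium and ERK signalling. A match is a description of the letters, not evidence that a factor binds there. RefSeq promoters (build GRCr8, the 250 bases before the gene's start) were matched for 7 members, and *Fos*, *Egr3* and *Arc* had no entry. The core of the cAMP response element that CREB binds, TGACG on either strand, was found in 5 of the 7 (*Junb*, *Egr1*, *Egr2*, *Egr4* and *Nr4a1*), against 18.2% of 33469 promoters of the same length. The full element TGACGTCA was in 0 of the 7 and in 1.59% of all promoters, and any copy of it would also count as a core. The CArG box that SRF binds was found in *Egr1* and *Egr2*, against 1.5% of all promoters. In the sequences below, given 5′ to 3′ in the direction of transcription, capitals mark the CREB cores (TGACG or its complement CGTCA) and, in *Egr2*, the CArG box.
Egr2 (chr20:21054442-21054691, minus strand): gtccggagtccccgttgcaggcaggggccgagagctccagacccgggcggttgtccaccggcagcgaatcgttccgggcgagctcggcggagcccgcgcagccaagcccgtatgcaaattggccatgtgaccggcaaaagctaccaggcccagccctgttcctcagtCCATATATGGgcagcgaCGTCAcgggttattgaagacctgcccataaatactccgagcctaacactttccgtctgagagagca
Egr4 (chr4:119607818-119608067, minus strand): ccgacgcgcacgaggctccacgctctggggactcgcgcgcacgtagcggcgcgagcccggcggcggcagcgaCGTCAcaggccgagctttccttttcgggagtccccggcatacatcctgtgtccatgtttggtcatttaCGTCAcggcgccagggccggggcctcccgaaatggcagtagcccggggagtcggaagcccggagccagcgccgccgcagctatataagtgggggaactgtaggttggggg
Nr4a1 (chr7:134259888-134260137, plus strand): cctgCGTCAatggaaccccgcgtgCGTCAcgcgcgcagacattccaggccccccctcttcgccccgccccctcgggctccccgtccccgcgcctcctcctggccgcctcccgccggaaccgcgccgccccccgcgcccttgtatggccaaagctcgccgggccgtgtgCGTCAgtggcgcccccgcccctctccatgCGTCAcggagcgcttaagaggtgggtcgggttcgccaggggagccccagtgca
The *Egr2* promoter had 1 core and 1 CArG box, *Egr4* had 2 cores and *Nr4a1* had 4. Of those not shown, *Egr1* had 2 cores and 2 CArG boxes, and *Junb* had 1 core. In *Egr1* and *Egr2* a CArG box lay at the same place, with its first base 83 bases before the start, and a core followed 66 bases before it. *Fosb* and *Npas4* had neither element in this window, which says only that these letters are absent from it.

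The libraries held between 16346629 and 25552681 gene reads in the LSD group and between 11098076 and 24201351 in the Saline group. Levels are given below as normalised RPM, read counts scaled to a common library size, which do not account for transcript length, so they were compared between rats and not between genes. The smallest member count was 119 reads (*Egr2*) and the largest 12203 (*Arc*). Cortical markers were present in every rat: the 7 excitatory neuron markers summed to between 2044 and 3177 RPM and the 6 interneuron markers to between 657.8 and 935.7 RPM. In bulk tissue, fewer active neurons and less immediate early RNA per neuron cannot be told apart.

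None of the 10 immediate early genes passed the test between LSD-treated rats and controls. In the edgeR quasi-likelihood test over all genes, 0 of 10 had an adjusted p under 0.05, where 15.0% of the 16605 genes tested passed (6.48% higher and 8.54% lower in LSD). When libraries were scaled by total counts the balance over all genes turned, with 9.06% higher and 5.17% lower, as it did without a filter on low counts (3.81% higher and 3.32% lower), and 0 of 10 members passed in either. At an unadjusted p under 0.05 the count was also 0 of 10, where 30.8% of all genes passed. DESeq2 called 0 of 10 members and 18.4% of all genes, and the fit without both rats numbered 1, which had the lowest values of several members, called 0 of 10 and 13.0%. With library size as a covariate, described further on, 1 of 10 passed (*Egr3*) and 7.06% of all genes. All 10 log2 fold changes were positive, between 0.06 (*Egr4*) and 0.43 (*Egr2*) with a median of 0.18, and 50.4% of all genes tested had a positive one. The members rose and fell together between rats, as described further on, so their shared sign is not 10 separate observations. For every member the LSD and Saline values overlapped.

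**Figure D1:**
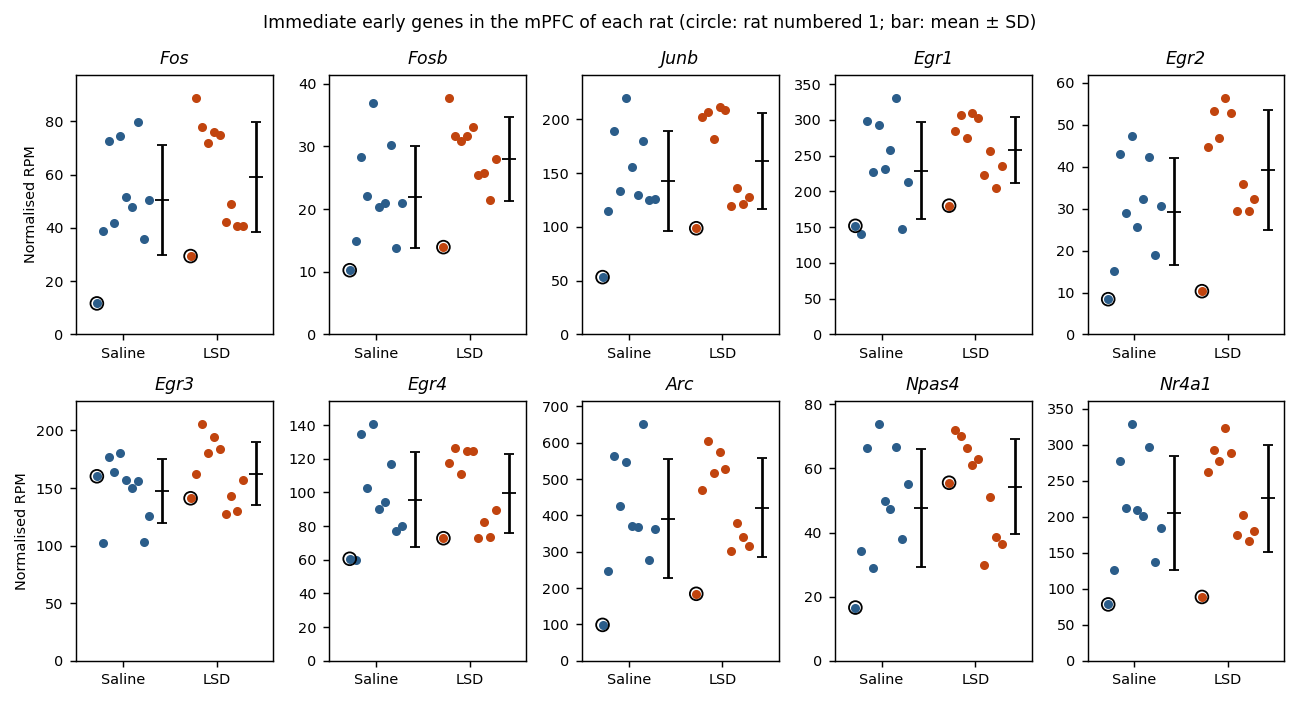
Normalised RPM (linear axis from 0) of each of the 10 genes in the 10 Saline and 10 LSD rats, 1 point per rat, with bars for the mean ± SD and circles around the rats numbered 1. The groups overlap in every panel, and the circled rats lie at or near the bottom in most panels.

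*Fos*, *Fosb* and *Junb* encode subunits of the AP-1 transcription factor, in which a Fos protein pairs with a Jun protein. *Fos*, the gene most used to mark recently active neurons, ranged from 29.4 to 88.7 RPM (median 60.3) in LSD-treated rats and from 11.7 to 79.8 RPM (median 49.1) in controls. Only 5 of 10 LSD-treated rats exceeded the control median, so the groups lay side by side, with 1 control far below the rest. On the log2 scale the change was 0.23 ± 0.24 (SE; 95% interval −0.27 to 0.73; edgeR adjusted p = 0.563). Without Saline rat 1 it was 0.11.

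*Fosb*, whose truncated splice product builds up in neurons under repeated drug exposure, came closest to a difference by the share of rats. It ranged from 13.9 to 37.7 RPM (median 29.4) in LSD-treated rats and from 10.2 to 37.0 RPM (median 21.0) in controls. All but 1 of the LSD-treated rats, 9 of 10, exceeded the control median, and the exception was LSD rat 1. LSD over Saline, the log2 fold change was 0.36 ± 0.19 (SE; 95% interval −0.02 to 0.75), a fold of 1.28 (0.984 to 1.68), with an edgeR adjusted p of 0.191. The counts are per gene, so the truncated product was not separated from the full-length one. *Junb*, the Jun partner, ranged from 98.8 to 212 RPM (median 159) in LSD-treated rats and from 53.3 to 220 RPM (median 131.5) in controls. Its groups overlapped over almost their whole range, with 6 of 10 LSD-treated rats above the control median. On the log2 scale the change was 0.18 ± 0.19 (SE; 95% interval −0.20 to 0.57; edgeR adjusted p = 0.551), and 0.09 without Saline rat 1.

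*Egr1* to *Egr4* encode zinc finger transcription factors that bind the same GC-rich element. The products of *Egr1*, *Egr2* and *Egr3* are held back by the NAB corepressors. *Egr1*, induced by synaptic potentiation, ranged from 180 to 310 RPM (median 266) in LSD-treated rats and from 140 to 330 RPM (median 229) in controls. Both the lowest and the highest rat were controls, and 7 of 10 LSD-treated rats exceeded the control median. The log2 fold change was 0.17 ± 0.15 (SE; 95% interval −0.13 to 0.47; edgeR adjusted p = 0.455). Without Saline rat 2, the lowest of the controls, it was 0.11.

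*Egr2*, which in neurons follows strong stimulation and in Schwann cells drives myelination, had the largest estimate of the 10 genes and the widest interval. It ranged from 10.3 to 56.3 RPM (median 40.3) in LSD-treated rats and from 8.40 to 47.3 RPM (median 29.9) in controls. LSD rat 1, at 10.3 RPM, stood far below the next LSD-treated rat at 29.5 RPM, and 7 of 10 LSD-treated rats exceeded the control median. Its log2 fold change was 0.43 ± 0.26 (SE; 95% interval −0.12 to 0.97), a fold of 1.34 (0.921 to 1.96), with an edgeR adjusted p of 0.284.

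*Egr3*, known to be induced by psychedelics in cortex, varied least between rats. It ranged from 127.5 to 205 RPM (median 160) in LSD-treated rats and from 102.6 to 180 RPM (median 156) in controls. The medians were close, and 6 of 10 LSD-treated rats exceeded that of the controls. Its log2 fold change was 0.14 ± 0.11 (SE; 95% interval −0.09 to 0.36; edgeR adjusted p = 0.411), a fold interval of 0.942 to 1.29. That interval depends on the fit, since with library size as a covariate the log2 fold change was 0.39 and passed. Without Saline rat 9 the log2 fold change was 0.09. *Egr4* ranged from 72.8 to 126.5 RPM (median 100.2) in LSD-treated rats and from 60.0 to 140 RPM (median 92.2) in controls, with 5 of 10 LSD-treated rats above the control median. Its log2 fold change of 0.06 ± 0.16 (SE; 95% interval −0.26 to 0.38; edgeR adjusted p = 0.838) was the smallest of the 10, and leaving out single rats moved it between 0.003 (without Saline rat 1) and 0.14 (without Saline rat 5).

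*Npas4* encodes a neuronal bHLH-PAS factor that answers calcium influx rather than growth factors and controls inhibitory synapse number. It ranged from 29.7 to 71.9 RPM (median 58.2) in LSD-treated rats and from 16.6 to 73.7 RPM (median 48.6) in controls. All 10 LSD-treated rats lay within the control range, 7 of them above the control median. The log2 fold change was 0.19 ± 0.21 (SE; 95% interval −0.24 to 0.62; edgeR adjusted p = 0.583), and 0.09 without Saline rat 1.

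*Nr4a1*, an orphan nuclear receptor that limits synapse density on active neurons, ranged from 88.7 to 323 RPM (median 232) in LSD-treated rats and from 78.3 to 328 RPM (median 205) in controls. The extremes of the groups nearly coincided, and 5 of 10 LSD-treated rats exceeded the control median. Its log2 fold change was 0.14 ± 0.22 (SE; 95% interval −0.32 to 0.60; edgeR adjusted p = 0.722), 0.23 without LSD rat 1 and 0.04 without Saline rat 1.

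*Arc*, whose mRNA travels to dendrites and whose protein draws AMPA receptors away from synapses, is the only one of the 10 that does not encode a transcription factor. It ranged from 184 to 604 RPM (median 425) in LSD-treated rats and from 98.7 to 650 RPM (median 370) in controls. The controls held both the lowest and the highest value, and 6 of 10 LSD-treated rats exceeded the control median. The log2 fold change was 0.11 ± 0.24 (SE; 95% interval −0.39 to 0.61; edgeR adjusted p = 0.809). Its direction rested on a single control, since without Saline rat 1 the log2 fold change was −0.01.

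**Figure D2:**
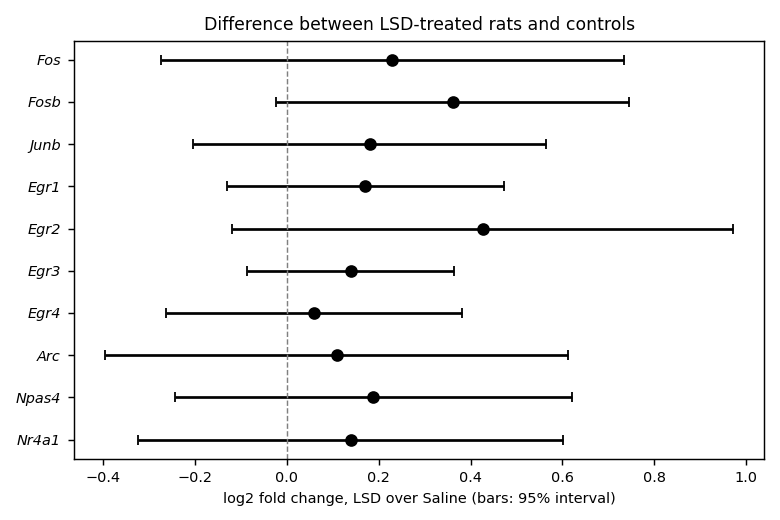
log2 fold change of each gene, LSD over Saline, from the edgeR fit (points) with its 95% interval (bars). All 10 points lie right of 0 and all 10 intervals include 0.

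The spread between rats of a group was wide for these genes. The SD of their log2(normalised RPM + 1) values was 0.24 to 0.69 in LSD-treated rats and 0.29 to 0.78 in controls, against medians over all genes of 0.15 and 0.19. *Fos* differed 6.85-fold and *Arc* 6.59-fold between the highest and the lowest control, whereas *Egr3* differed 1.76-fold. The SD was smaller in LSD-treated rats for 10 of 10 members, and for 76.7% of all genes tested. In a limma test on each rat's absolute deviation from its group mean, no gene had a difference in spread at an adjusted p under 0.05, while 1602 genes (9.65%) had an unadjusted p under 0.05. The members' adjusted p-values in that test lay between 0.569 (*Egr1*) and 0.983 (*Junb*).

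The same rats were high or low for nearly all 10 genes. Among LSD-treated rats, rats 2 to 6 held the 5 highest values of all 10 members. LSD rat 1 was lowest for 8 members, and rat 7 for the remaining *Egr3* and *Npas4*. The break after the 5 highest was visible in the values: the fifth and sixth highest LSD-treated rats had 71.8 and 48.9 RPM of *Fos*, 182 and 136 RPM of *Junb*, and 262 and 202 RPM of *Nr4a1*. Among controls, rat 1 was lowest for 7 members and rat 2 for *Egr1*, *Egr3* and *Egr4*, while rat 5 was highest for 7 and rat 8 for *Fos*, *Egr1* and *Arc*. Saline rat 1 was not low throughout, since its *Egr3*, at 160.2 RPM, was above the control median. Summed over the 10 genes, levels ran from 875 to 1975 RPM in LSD-treated rats and from 650 to 1950 RPM in controls.

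**Figure D3:**
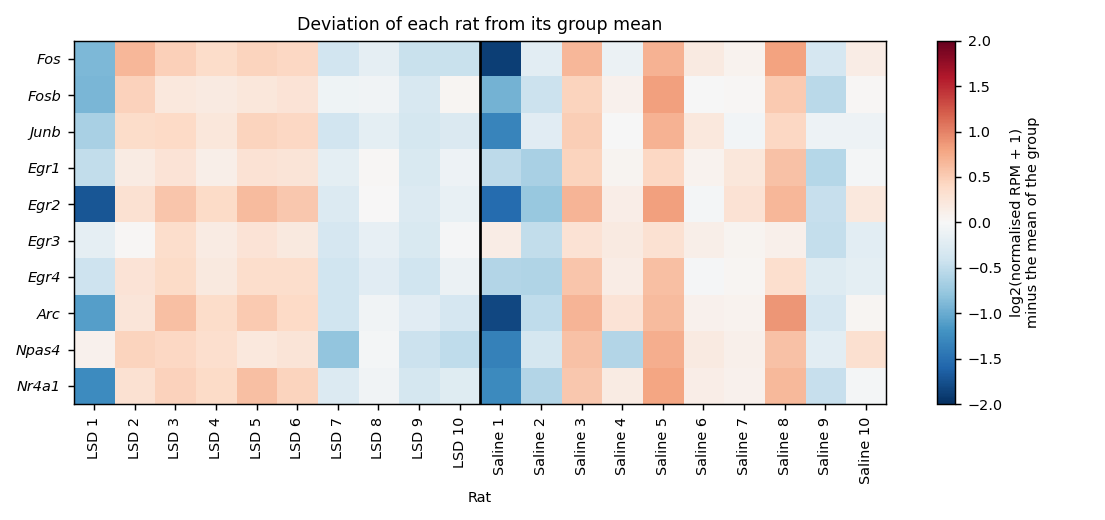
Deviation of each rat from the mean of its group in log2(normalised RPM + 1), for the 10 genes (lines) and 20 rats (columns, LSD left and Saline right of the black line). Columns tend to hold a single colour, red or near white in LSD rats 2 to 6 and blue in both rats numbered 1 apart from *Egr3* in Saline rat 1 and *Npas4* in LSD rat 1.

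Correlations between the genes gave the same picture as numbers. Over the 10 controls, the 45 pairs of members had Pearson's r between 0.23 and 0.98 (median 0.91) and Spearman's rho between 0.31 and 0.98 (median 0.88), and all 45 were positive. By permutation tests with 100000 resamples and adjustment over the 45 pairs, 38 had an adjusted p under 0.05 for r and 38 for rho. The 3 weakest control pairs all held *Egr3*, with r = 0.23 to *Fos* (permutation p = 0.526) and 0.23 to *Npas4* (permutation p = 0.527). Without Saline rat 1 the *Fos* pair had r = 0.74. The strongest, *Fosb* with *Nr4a1*, had r = 0.98 (permutation p = 2e-05). Leaving out, for each pair, the 2 controls farthest from the median of the first gene gave a median r of 0.89.

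Over the LSD-treated rats the median r was 0.89 (range 0.39 to 0.99), and for all 20 rats centred by group it was 0.87 (range 0.42 to 0.98). These are given as descriptions. The LSD-treated rats fell into 5 high and 5 lower ones, by a narrow margin for some members. Sets of 5 are too few for a correlation within them. Without both rats numbered 1 the median over the centred rats was 0.89. The median over all pairs of genes tested was -0.002.

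Sequencing depth moved with these levels and was not spread evenly over the groups: the median library held 20271086 reads on genes in LSD and 16815424 in Saline. The 4 deepest LSD libraries, from 22770382 to 25552681 reads, were those of rats 7 to 10, whose values lay below those of rats 2 to 6 for all 10 members. Of all 16605 genes tested, 7985 had a negative Pearson's r with log2 library size over the 20 rats centred by group (median 0.03). In the same rats, r between a member's log2 level and log2 library size was negative for all 10, from -0.71 to -0.19. It had an adjusted permutation p under 0.05, over 10 relations, for *Egr3* (r = -0.71, rho = -0.68, adjusted permutation p = 0.0075) and *Egr4* (r = -0.59, rho = -0.48, adjusted permutation p = 0.0491 and, for rho, 0.137). In controls alone *Egr3* had r = -0.87 and rho = -0.96 (adjusted permutation p = 0.0006 and 0.0007), and in LSD-treated rats no member passed (r from -0.71 to 0.16). Within the LSD group, r was negative for all 10 members without the 2 rats farthest in library size (-0.87 to -0.66) and without LSD rat 1 (-0.90 to -0.75). Without the 2 rats farthest from the median library size, r over the centred rats ranged from -0.59 (*Egr3*) to 0.11, with 6 of 10 negative, so over all 20 rats the relation of most members did not hold without those rats. Without both rats numbered 1, which had low values at 16346629 (LSD) and 15346213 (Saline) reads, r ranged from -0.87 to -0.59. With log2 library size as a covariate, chosen after the data were seen, all 10 estimates grew, to between 0.35 (*Arc*) and 0.73 (*Egr2*). *Egr3* alone then passed (log2 fold change 0.39 ± 0.10 (SE), edgeR adjusted p = 0.0295). The part of depth in the levels was not tested beyond these values.

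The genes outside the set whose levels most resembled it were themselves immediate early genes. Likeness was measured as Pearson's r, over 20 rats centred by group, with the mean of the 10 standardised members. The 5 highest were *Dusp1* (r = 0.96) and *Dusp6* (0.91), phosphatases that switch off MAP kinases, *Sik1* (0.94), a cAMP-induced kinase that restrains CREB coactivators, the transcription factor *Csrnp1* (0.92) and the pseudokinase *Trib1* (0.92). None of the 5 passed the test between groups (edgeR adjusted p between 0.258 and 0.834). *Dusp1* had 128 ± 44.4 RPM in LSD-treated rats and 113 ± 39.0 RPM in controls (SD, n = 10), a log2 fold change of 0.19. The lowest r were those of *Dusp22* (-0.78), *RGD1560314* (-0.74) and *Senp3* (-0.73). Among the members, r with this mean, of which each is a part, ran from 0.68 (*Egr3*) and 0.83 (*Npas4*) to 0.98 (*Nr4a1*).

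**Figure D4:**
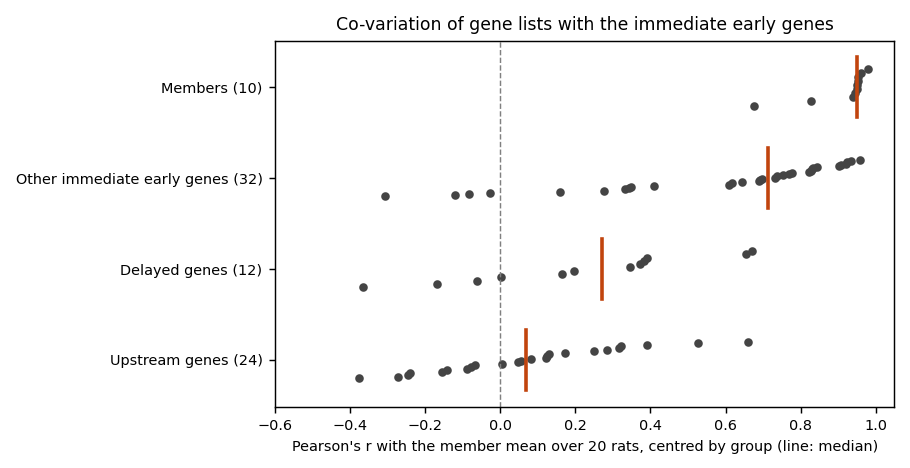
Pearson's r of each gene with the mean of the 10 members, over 20 rats centred by group, for the members and for 3 gene lists (number of genes in brackets; orange line, median). The other immediate early genes lie mostly to the right, with a median of 0.71, and the delayed and upstream genes spread around medians of 0.27 and 0.07.

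A list of 32 other immediate early genes (further AP-1, NR4A, KLF, DUSP and IER genes) had a median r of 0.71 with the member mean, and 22 of 32 exceeded 0.5, against 2.78% of all genes. Of these 32, 2 were higher and 0 lower in LSD (6.25%, against 15.0% of all genes), with a median log2 fold change of 0.11. The 2 were *Homer1*, a postsynaptic scaffold whose short form is the activity-induced one, at 87.3 ± 11.6 against 71.1 ± 10.8 RPM (SD, n = 10; log2 fold change 0.30 ± 0.09 (SE), edgeR adjusted p = 0.0250), and *Plk2*, a kinase that weakens overactive synapses, at 201 ± 14.8 against 179 ± 12.7 RPM (log2 fold change 0.17 ± 0.05 (SE), edgeR adjusted p = 0.0299). Against the member mean, *Homer1* had the lowest r of the 32, -0.31, and *Plk2* had 0.28. The *Homer1* counts take in both its long and its short forms. With library size as a covariate neither passed, and with offsets for gene span only *Plk2* did.

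Of the delayed activity-regulated genes, the later wave that the immediate early factors help to switch on, 6 of 12 were higher in LSD and 0 lower, where 15.0% of all genes passed in either direction. The median log2 fold change of the 12 was 0.22. *Bdnf*, the neurotrophin, was at 21.8 ± 4.13 RPM in LSD-treated rats and 15.8 ± 1.66 RPM in controls (SD, n = 10; log2 fold change 0.46 ± 0.10 (SE), edgeR adjusted p = 0.00689). The neuropeptide-processing enzyme *Pcsk1* rose by 0.42 ± 0.12 on the log2 scale (SE; edgeR adjusted p = 0.0234), and cyclooxygenase *Ptgs2* by 0.43 ± 0.13 (edgeR adjusted p = 0.0308). Smaller rises were those of the neuropeptide *Adcyap1* (0.27, edgeR adjusted p = 0.0255), the F-box gene *Fbxo33* (0.21, 0.0180) and the Ras activator *Rasgrp1* (0.22, 0.0425). The other 6 did not pass, among them *Vgf* at -0.37 and *Nptx2* at -0.19. Correlation with the member mean was 0.65 for *Ptgs2* and 0.38 for *Bdnf*, and close to 0 for *Rasgrp1*. Without both rats numbered 1, 5 of the 12 passed, where 13.0% of all genes did. With library size as a covariate 1 passed (*Ptgs2*, log2 fold change 0.63, edgeR adjusted p = 0.0248), where 7.06% of all genes did.

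Of 24 signalling genes and factors that act on immediate early promoters, 5 were higher and 3 lower in LSD (33.3%, against 15.0% of all genes), with a median log2 fold change of 0.03. Within the ERK cascade, the kinases *Mapk3* (-0.35 ± 0.07 (SE), edgeR adjusted p = 0.00468) and *Map2k2* (-0.26 ± 0.07, 0.0145) fell, while the downstream CREB kinase *Rps6ka3* rose (0.24 ± 0.07, 0.0226). Among the factors, *Srf*, the factor of the CArG box, fell (-0.28 ± 0.08 (SE), edgeR adjusted p = 0.0253), its partner *Elk4* rose (0.25 ± 0.06, 0.0117), and the CREB kinase *Camk4* rose (0.32 ± 0.10, 0.0364). *Rps6ka5* and *Creb1* were also higher. With offsets for gene span, 1 gene was higher (*Elk4*) and 2 lower (*Mapk3*, *Map2k2*), where 558 and 1129 of all 16605 genes were. With library size as a covariate 0 were higher and 1 lower (*Mapk3*), where 534 and 639 of all genes were. Gene by gene, their median r with the member mean was 0.07, or 0.19 without both rats numbered 1. The mean of the 24 had r = 0.29, or 0.84 without those rats, a value that the single genes did not reach at their median. The highest single r was that of the EGR corepressor *Nab2* (0.66).

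Of 52 cell type markers tested, 3 were higher and 5 lower in LSD (15.4%), a share near the 15.0% of all genes. Higher in LSD were *Rorb* (excitatory neurons), *Gad2* and *Vip* (interneurons), and lower were *Slc32a1* and *Sst* (interneurons), *Aldoc* (astrocytes), *Cldn11* (oligodendrocytes) and *Hbb* (red blood cells). In log2 fold change these ran from 0.23 (*Gad2*) to 0.27 (*Vip*) for the higher ones and from -0.50 (*Hbb*) to -0.28 (*Sst*) for the lower ones. None of the 6 microglial, 6 endothelial, 4 meningeal or 6 striatal markers tested passed, the nearest in each being *P2ry12* and *Aif1* (0.12 and 0.13), *Cldn5* and *Rgs5* (-0.18 and 0.28), *Col1a1* and *Ttr* (-0.53 and 0.53), and *Adora2a* and *Drd1* (-1.06 and -0.61; edgeR adjusted p = 0.0671 and 0.0679). Every log2 fold change was negative among the 6 striatal markers (median -0.71), the 6 oligodendrocyte markers (median -0.39) and the 5 red blood cell markers tested (median -0.39), though only *Cldn11* and *Hbb* of them passed. The 6 striatal markers together ran from 200.8 to 434.7 RPM in LSD and from 230.4 to 609.5 RPM in Saline, and the 6 oligodendrocyte markers from 2102 to 5545 RPM in LSD and from 2130 to 7186 RPM in Saline. With library size as a covariate, 12 of the 52 markers were lower in LSD, where 639 of 16605 genes were.

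Against the member mean, over 20 rats centred by group, the mean of the oligodendrocyte markers had r = -0.40, that of the striatal markers -0.12, that of the interneuron markers -0.23 and that of the excitatory markers 0.18. Without both rats numbered 1 the excitatory value was 0.74 and the astrocyte value -0.55 (from -0.07 over all 20). The part of tissue composition in the levels of the immediate early genes was not tested.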

How the data were processed

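Poly(A)-selected RNA from the mPFC of 20 rats was sequenced, and the sample labels gave the groups. The authors used TrimGalore for trimming, Hisat2 for alignment (rn6) and HTSeq-count for counting, and deposited raw counts per gene without normalisation. Versions, annotation and strand setting are not given in the sources used here. The matrix ends with 5 unnamed rows holding 25.5% to 29.0% of all reads, which were left out. No 2 libraries were identical, and 5839 genes had no reads.

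Genes that reached 5 reads in 10 or more libraries were tested by edgeR 4.0.16 (quasi-likelihood, TMM, two-sided) in R 4.3.3 with Benjamini-Hochberg adjustment over 16605 genes. Normalised RPM uses TMM library sizes, and log2 values add 1 RPM. Spread was tested with limma 3.58.1. Permutation tests used scipy 1.17.1 and numpy 2.4.6. Errors are SDs or SEs over the 10 rats of a group. The edgeR test was checked on simulated counts. The spread test was checked on simulated normal values, with a larger difference in SD than the members showed. The permutation tests were not part of this check. Alternatives were DESeq2 1.42.0, other scalings and filters, 1 surrogate variable (sva 3.50.0), a block for the replicate number, offsets for gene span (GRCr8, 14942 genes), each rat left out and, added after the data were seen, library size as a covariate and both rats numbered 1 left out.

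Named genes are the 10 members, up to 6 genes by smallest p among those past the threshold in each other list (or, where none passed, the 2 with the smallest p), and the 5 most and 3 least like the member mean. *Vgf*, *Nptx2*, *Nab2*, *Rps6ka5* and *Creb1* were named after their values were seen. The members and lists were chosen with earlier results of these data known. Promoter sequences are RefSeq's, on GRCr8.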

Additional observations from a re-analysis of the deposited data

Results flagged for a closer look

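In 5 of the 20 sets of 10 rats (10 genes in each group), the lowest rat stood further from the next than Dixon's 95% limit for 10 samples allows, as a part of the range. Chance alone marks about 1 set in 20, and these genes moved together between rats, so the 5 are not separate events. Saline rat 1 was the rat in 3 of them, with a gap of 0.575 of the range for *Fos* (log2 3.66, next rat 5.20), 0.540 for *Junb* (5.76, next 6.86) and 0.484 for *Arc* (6.64, next 7.95). LSD rat 1 was the rat in the other 2, with 0.612 for *Egr2* (log2 3.50, next 4.93) and 0.487 for *Nr4a1* (6.49, next 7.39). No set was marked for its highest rat.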

How the results depend on the processing

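All 10 log2 fold changes stayed positive, and no member passed the test, under median-ratio size factors, DESeq2, total counts, the other filters, the surrogate variable, the span offsets and without both rats numbered 1. With each rat left out in turn no member passed either, and *Arc* changed sign (-0.0061 to 0.219, the former without Saline rat 1). With the replicate number as a block, *Fosb* (0.39, edgeR adjusted p = 0.0380) and *Egr2* (0.45, 0.0436) passed, where 1355 of 16605 genes were higher and 1606 lower. With block and span offsets *Fosb* (0.46) and *Egr2* (0.52) did, where 748 of all genes were higher and 1339 lower. Whether the numbers pair rats is not given: deviations of same-numbered rats correlated at -0.26 to 0.47 (mean 0.15, against -0.02 for other pairs), with 6 of 10 above 0.1, and 1 of 10 LSD-treated rats correlated best with its own number. With library size as a covariate *Egr3* passed (0.39). The causes were not tested.

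Over all genes, 1076 were higher and 1418 lower in LSD. Total counts (1504 higher, 858 lower) and no filter (960 higher, 836 lower) turned this balance, span offsets gave 558 higher and 1129 lower, and library size as a covariate gave 534 higher and 639 lower. Leaving out single rats gave 659 to 1681 higher and 907 to 1867 lower (659 and 907 without LSD rat 8, 705 higher without Saline rat 4, 1681 higher without Saline rat 2). Over all genes the log2 fold changes had a median of 0.002, and 0.05 with total counts.

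Over all 16605 genes, the block gave 1355 higher and 1606 lower, and leaving out both rats numbered 1 gave 925 and 1233. Counts over all genes in the other settings are given above. Of the 32 other immediate early genes, 6 were higher and 1 lower with the block, and 1 was higher with span offsets. Without both rats numbered 1, 4 of them were higher and 1 lower, and with library size as a covariate 0 were higher. Of the delayed genes, 1 was higher with library size. Of the upstream genes, 8 were higher with total counts, 1 with span offsets and 0 with library size, which left 1 lower. Of the 52 markers, 1 was higher and 3 lower with span offsets, where 558 and 1129 of all 16605 genes were. With the block 12 markers were lower, where 1606 of all genes were, and with library size 12, where 639 of all genes were.

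For the spread, 2 genes passed without both rats numbered 1, and 0 to 1 with single rats left out (1 without Saline rat 1, 6 or 9). The difference in spread, LSD minus Saline, turned positive for *Fos* (0.0759) and *Npas4* (0.0200) without both rats numbered 1, and negative for *Junb* with squared deviations (-0.136). With single rats left out it ran from -0.101 to 0.135 for *Fos*, -0.0333 to 0.104 for *Junb*, -0.246 to 0.0815 for *Egr2*, -0.0623 to 0.0234 for *Egr3*, -0.0646 to 0.00371 for *Egr4*, -0.203 to 0.0574 for *Arc* and -0.143 to 0.0922 for *Nr4a1*. Each member had at least 119 reads in every rat, and what depth limits beyond that was not tested.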
